A study of Rattus norvegicus with 24 samples.

Results

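Gene expression in dorsal root ganglia (DRG) was compared between rats that swam and rats that walked in shallow water after a contusion spinal cord injury (SCI), using 10 of the 24 samples in the series. The samples were chosen by their labels. They were 5 from contused rats trained by swimming (CONT SCI + SWIM) and 5 from contused rats trained by shallow water walking (CONT SCI + SWW). All were adult female Sprague Dawley rats with a 25 g-cm contusion of the thoracic cord at T2. They were housed in small cages that restrict locomotion, and each rat gave 1 sample in which DRG of both sides from T11 to L4 were pooled. Training in both groups began 2.5 weeks after injury and ran 5 days a week for 10 weeks, and tissue was taken at 13.5 weeks, so that injury, housing, training time and collection time were the same and the form of exercise differed. Rats shared a cage with a rat of their own group. Where deaths left an odd number, the cage mate was an injured rat from outside the study. The labels do not give the cages. Untrained rats in the same housing, 6 of them contused (CONT SCI) and 4 uninjured (No SCI), entered the same fit and were collected at 11.5 weeks. Between these and the exercised groups, exercise and collection time cannot be told apart.

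The DRG hold the cell bodies of the sensory neurons that carry touch, pain, temperature and limb position into the spinal cord, together with satellite glia, Schwann cells, vessels and immune cells. DRG at T11 to L4 lie below a contusion at T2 and serve the lower trunk and much of the hindlimb. In swimming, water bears the body weight and the paws meet little resistance underfoot, whereas in shallow water walking the paws load the floor with part of the weight carried by buoyancy. Both therefore repeat hindlimb stepping movements under different load and contact. The signals that reached the neurons of the sampled DRG were not measured. In bulk tissue, a change in the number of cells of a type and a change in RNA per cell cannot be told apart.

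Whole-number read counts for 24613 Ensembl genes were available for each sample. They summed to 16086670 to 29709101 in CONT SCI + SWIM and to 20063150 to 29995120 in CONT SCI + SWW. No difference between these groups passed the test in total counts (2-sided exact permutation test, p = 0.476) or in genes detected (exact p = 0.730). The sums were 30462475 to 38370849 in CONT SCI, above those of every exercised rat, and 29191327 to 33841979 in No SCI. Comparisons of the exercised groups with CONT SCI thus also differ in total counts. The 10 most abundant genes took 7.35% ± 0.30 (SD, n = 5) of counts after swimming and 6.84% ± 0.18 (SD, n = 5) after shallow water walking (exact permutation p = 0.0159, adjusted over 5 library measures 0.0794, where the smallest p the design allows is 0.00794). The correlation of log2 CPM (counts scaled to a common library total) over genes was 0.988 to 0.993 between rats within CONT SCI + SWIM, 0.986 to 0.992 within CONT SCI + SWW and 0.983 to 0.993 between the groups, so the ranges within and between the 2 forms of exercise overlapped. Genes are given by Ensembl identifier, because none of the 24613 identifiers was paired with a symbol in the tables used here. Gene functions, gene families and marker genes of the tissue were for that reason not analysed here.

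The genes that differed between the 2 forms of exercise were mostly higher after swimming. Of 15179 genes tested, 454 passed an adjusted p of 0.05 (2.99% of those tested), of which 405 were higher in CONT SCI + SWIM (2.67%) and 49 were lower (0.323%), by the quasi-likelihood test of edgeR with adjustment after Benjamini and Hochberg. This imbalance was not shared by all tested genes, of which 47.3% had the higher fitted level in CONT SCI + SWIM. At an unadjusted p under 0.05 there were 2863 genes, 1603 higher and 1260 lower. With scaling to total counts only, that split was 1434 higher and 1468 lower, while the other scalings tried kept more genes higher than lower. The number of calls moved with single rats. It was 123 without CONT SCI + SWIM replicate 3, 149 without CONT SCI + SWW replicate 4, 187 without CONT SCI + SWW replicate 2, 207 without CONT SCI + SWW replicate 3, 214 without CONT SCI + SWIM replicate 2 and 811 without CONT SCI + SWW replicate 5. Leaving out both CONT SCI + SWIM replicate 3 and CONT SCI + SWW replicate 4, a setting chosen after seeing the data, left 27 genes, all higher in CONT SCI + SWIM. There were 116 genes called with all samples and in each of the 10 fits with 1 exercised rat left out, and all 116 were higher in CONT SCI + SWIM.

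**Figure D1:**
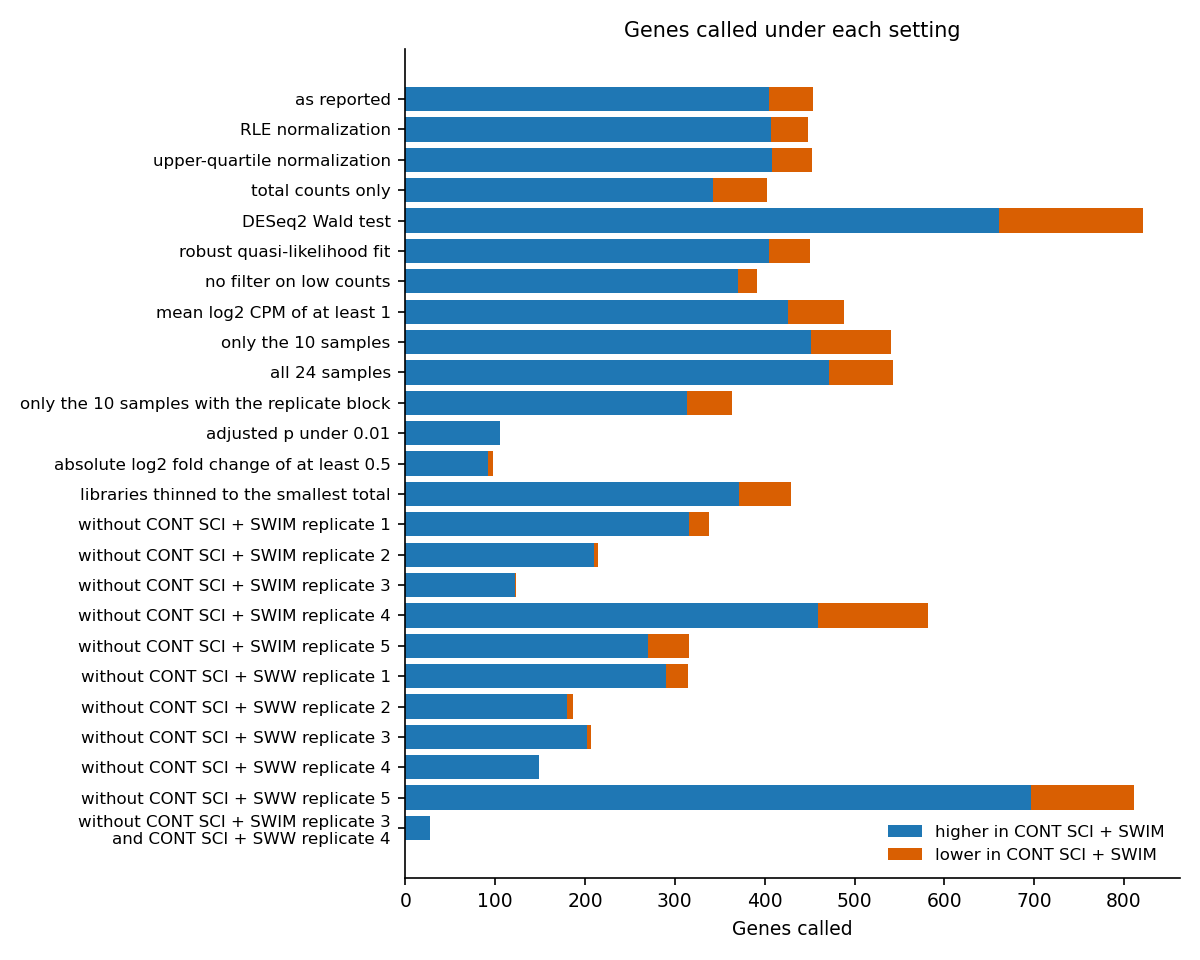
Number of genes called between the swimming and the walking group (horizontal axis, from 0) under each setting, with blue bars for genes higher and orange bars for genes lower in CONT SCI + SWIM. The top bar holds 454 genes, and the bars for fits with 1 rat left out run from 123 to 811.

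The differences were small for most of these genes. The median log2 fold change of the 405 genes was 0.35, with quartiles at 0.27 and 0.47, a median standard error (SE) of 0.08 and a largest value of 1.14. A log2 fold change of 0.5 was reached by 92 of the 405 genes and a value of 1 by 4 of them. The 49 genes lower in CONT SCI + SWIM had a median size of 0.27 on the log2 scale and a largest size of 1.10, 6 of them reaching 0.5 and 1 reaching 1. Over all tested genes the median size was 0.11. The samples of the 2 groups did not overlap in 351 of the 405 genes and in 36 of the 49, which makes 85.2% of the called genes against 6.86% (1042 genes) of all tested. The call was made on the same samples and favours genes without overlap, so that contrast is no separate evidence.

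Calls lay mainly among abundant genes. Of 2147 genes with a mean over 100 CPM, 104 were called (4.84%), 101 of them higher in CONT SCI + SWIM. Between 10 and 100 CPM the call covered 295 of 7340 genes (4.02%), between 1 and 10 CPM 53 of 4066 (1.30%), and under 1 CPM 2 of 1626 (0.123%). The median SE of the log2 fold change was 0.0625 in the most abundant class and 0.327 in the least abundant one, so a difference of the median size among the called genes was close to 1 SE in the least abundant class. How much of that SE comes from counting and how much from the spread between rats was not tested. Of 68 genes with a log2 difference of 1 or more in either direction, 63 were not called, and 44 of those 63 had a mean under 1 CPM.

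**Figure D2:**
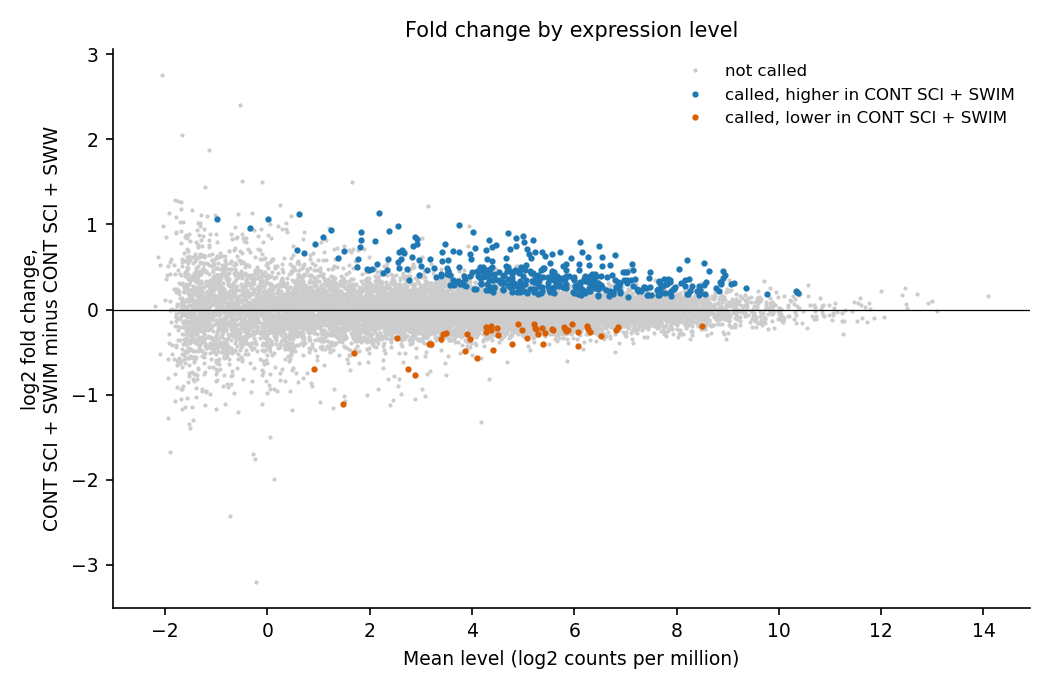
Log2 fold change of CONT SCI + SWIM minus CONT SCI + SWW (vertical axis) against mean level in log2 CPM (horizontal axis), with each point 1 of the 15179 tested genes. The 405 blue genes lie above 0 and reach 1.14, the 49 orange genes lie below 0, and the grey genes that were not called spread most widely at low levels.

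Among called genes whose mean log2 CPM reached 1, the gene with the largest difference was ENSRNOG00000009542. Its level in CONT SCI + SWIM was 5.00, 5.94, 7.13, 3.30 and 5.02 CPM in replicates 1 to 5, and in CONT SCI + SWW it was 2.67, 2.29, 2.35, 2.16 and 2.39 CPM. The groups did not overlap, and the levels of the CONT SCI + SWW rats lay within a narrower span than those of the CONT SCI + SWIM rats. The gene was 2.20-fold higher in CONT SCI + SWIM, a log2 fold change of 1.14 (SE 0.21, edgeR adjusted p = 0.00687). CONT SCI ran from 5.07 to 10.3 CPM with a median of 6.79 (n = 6) and No SCI from 1.45 to 2.58 CPM with a median of 1.91 (n = 4). Against CONT SCI, the log2 fold change was -1.59 in CONT SCI + SWW (SE 0.19, edgeR adjusted p = 1.22e-06) and -0.46 in CONT SCI + SWIM (SE 0.18, edgeR adjusted p = 0.0591), comparisons that share the CONT SCI samples. The difference between the exercised groups was 0.97 without CONT SCI + SWIM replicate 3 and CONT SCI + SWW replicate 4 together, with an edgeR adjusted p of 0.092.

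Among called genes above the same level, the next largest rise was that of ENSRNOG00000002496. It measured 14.6, 13.9, 17.9, 10.8 and 14.5 CPM in CONT SCI + SWIM replicates 1 to 5 and 6.97, 7.13, 8.16, 7.31 and 6.24 CPM in CONT SCI + SWW replicates 1 to 5. Every swimming rat lay above every walking rat. The gene was 2.00-fold higher in CONT SCI + SWIM (log2 fold change 1.00, SE 0.16, edgeR adjusted p = 0.00379). Its range was 16.0 to 26.2 CPM in CONT SCI and 6.31 to 11.2 CPM in No SCI, so all CONT SCI + SWW rats but replicate 5 lay within the No SCI range, and CONT SCI + SWIM lay between the untrained groups in mean. It was lower than in CONT SCI in both exercised groups, with a log2 fold change of -1.54 in CONT SCI + SWW (edgeR adjusted p = 7.90e-08) and of -0.54 in CONT SCI + SWIM (edgeR adjusted p = 0.0070). The difference between swimming and walking rats stayed under an adjusted p of 0.05 in each of the 22 alternative settings that changed the fit or the samples, between 0.91 and 1.12.

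In the other direction, the largest difference was that of ENSRNOG00000003538, which was 2.15-fold lower in CONT SCI + SWIM. Its levels were 1.66, 1.78, 1.29, 2.08 and 2.27 CPM in CONT SCI + SWIM replicates 1 to 5 and 3.22, 4.37, 4.74, 5.44 and 2.07 CPM in CONT SCI + SWW replicates 1 to 5. CONT SCI + SWW replicate 5 lay within the CONT SCI + SWIM range, so the groups overlapped. The log2 fold change was -1.10 (SE 0.29, edgeR adjusted p = 0.0412), and the gene was no longer called in 9 of the 22 settings, with an adjusted p of up to 0.328. Neither exercised group passed the test against CONT SCI in this gene (edgeR adjusted p = 0.231 in CONT SCI + SWIM and 0.0512 in CONT SCI + SWW).

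The other fall was that of ENSRNOG00000016326. It measured 5.81, 6.73, 5.35, 5.95 and 4.76 CPM in CONT SCI + SWIM replicates 1 to 5 and 11.0, 7.13, 10.8, 10.7 and 8.87 CPM in CONT SCI + SWW replicates 1 to 5. The groups did not overlap, CONT SCI + SWW replicate 2 lying closest to the swimming rats. The log2 fold change was -0.76 (SE 0.20, edgeR adjusted p = 0.0420), and the call was lost in 10 of the 22 settings, with an adjusted p of up to 0.272. Against CONT SCI it was higher in CONT SCI + SWW, by 0.51 on the log2 scale (edgeR adjusted p = 0.0334), while the value in CONT SCI + SWIM was -0.26 (edgeR adjusted p = 0.338). Reads of genes that overlap or have a near-identical copy could be split between rows, which was not checked for these 4 genes.

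**Figure D3:**
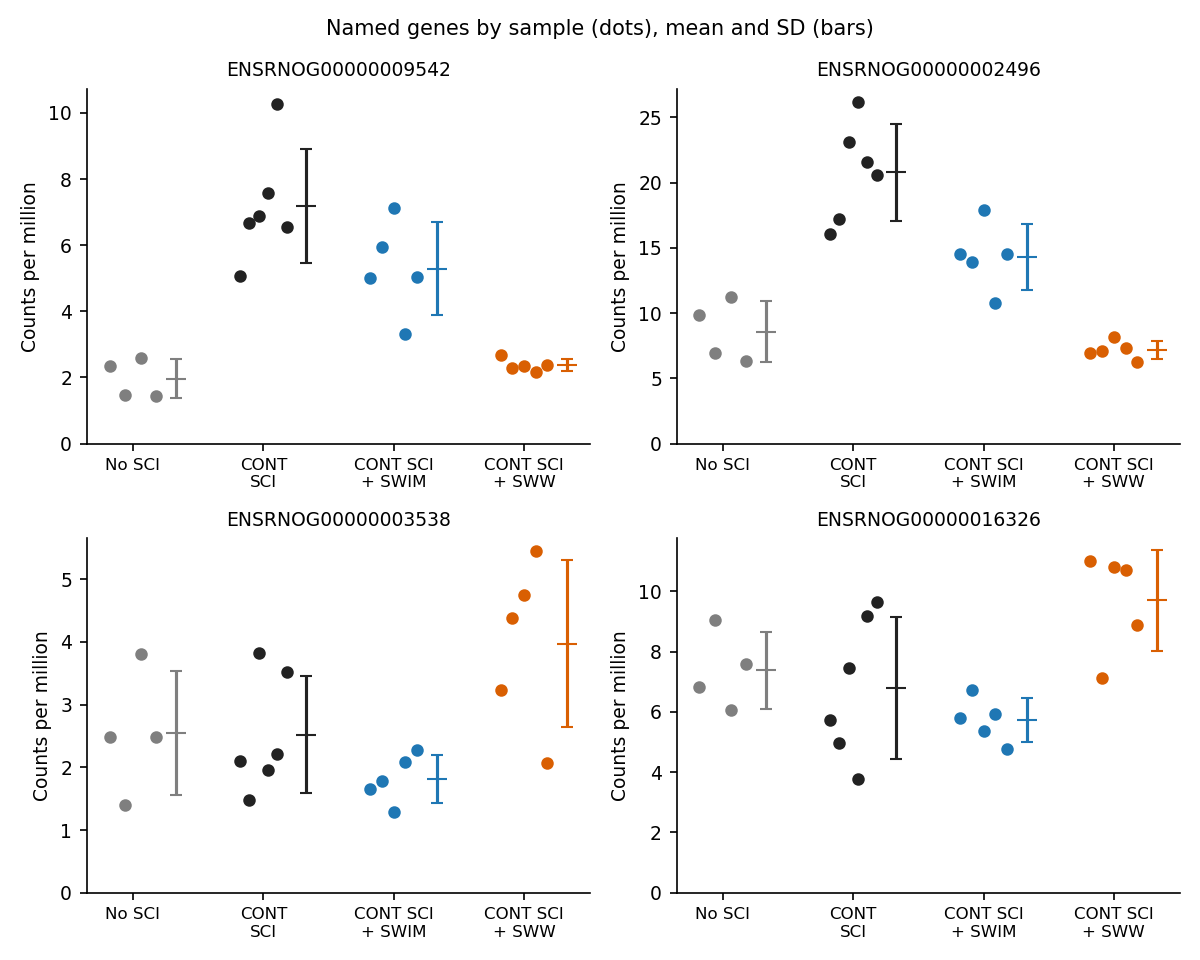
Level in CPM (vertical axis, from 0) of the 4 genes in each rat of 4 groups, with dots for single rats and bars for the group mean ± SD. In the upper panels CONT SCI + SWIM lies between CONT SCI and CONT SCI + SWW in mean, and in the lower panels CONT SCI + SWW has the highest mean of the 4 groups.

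The genes that were higher after swimming were, for the most part, genes that the untrained contused rats had at still higher levels. The CONT SCI mean lay above both exercised means in 379 of the 405 genes (93.6%), between them in 24 and below both in 2, whereas it lay above both in 41.8% of all tested genes. Over the 405 genes the median log2 fold change against CONT SCI was -0.27 in CONT SCI + SWIM and -0.63 in CONT SCI + SWW. Of the 405, 269 were called lower than CONT SCI in CONT SCI + SWIM (66.4%, against 19.6% of all tested genes) and 398 in CONT SCI + SWW (98.3%, against 24.3%). In the opposite direction 4 were called higher than CONT SCI in CONT SCI + SWIM (12.6% of all tested genes were) and 0 in CONT SCI + SWW (18.7% of all tested). Both comparisons use the same CONT SCI samples, and genes higher in CONT SCI + SWIM than in CONT SCI + SWW lie by choice further below CONT SCI in CONT SCI + SWW than in CONT SCI + SWIM. That choice also raises the share called lower in CONT SCI + SWW. Among the 6779 genes fitted higher in CONT SCI + SWIM but not called, the CONT SCI mean lay above both exercised means in 48.6%. Of the 6779, 17.6% were called lower than CONT SCI in CONT SCI + SWIM and 33.5% in CONT SCI + SWW. They were not matched to the 405 in level or SE.

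The comparison of CONT SCI with No SCI shares no sample with that of CONT SCI + SWIM with CONT SCI + SWW. In it, 363 of the 405 genes were called higher in CONT SCI (89.6%, against 8.01% of all tested genes), 0 were called lower (3.57% of all tested) and 398 had the higher fitted level in CONT SCI. Their median log2 fold change between CONT SCI and No SCI was 0.47. Among the 6779 genes that were fitted higher in CONT SCI + SWIM but not called, 12.0% were called higher in CONT SCI than in No SCI. The 2 comparisons share the dispersions of the same fit, and these sets of genes were not matched in level or SE. The median log2 CPM was 5.51 in the 405 genes, 4.11 in the 6779 and 4.24 in all tested. The median SE between the exercised groups was 0.079, 0.091 and 0.093. Over the 405 genes, the median log2 fold change against No SCI was 0.24 in CONT SCI + SWIM and -0.11 in CONT SCI + SWW, and the No SCI mean lay between the 2 exercised means in 294 of them (72.6%, against 23.9% of all tested genes). Choosing genes by a gap between the exercised means raises that share in itself, so all tested genes are not an even base for it. The share called higher in CONT SCI than in No SCI was 71.6% to 100% among the genes called higher in CONT SCI + SWIM in each of the 22 alternative settings that kept the untrained rats in the fit.

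Read from the contusion side, 1216 genes were called higher in CONT SCI than in No SCI. Of these, 1174 had the higher fitted level in CONT SCI + SWIM than in CONT SCI + SWW (96.5%, against 47.3% of all tested genes), and 363 were called so (29.9%, against 2.67%). The median log2 difference of CONT SCI + SWIM minus CONT SCI + SWW was 0.23 over the 1216 genes and -0.02 over the 13421 genes not called between CONT SCI and No SCI. It was 0.17 without both CONT SCI + SWIM replicate 3 and CONT SCI + SWW replicate 4, with 94.7% of the genes higher in CONT SCI + SWIM. For the 542 genes called lower in CONT SCI than in No SCI the median was -0.17, 58 had the higher level in CONT SCI + SWIM (10.7%, against 47.3% of all tested genes) and 12 were called lower in CONT SCI + SWIM (2.21%, against 0.323%). Over these 542 genes the median was -0.12 without CONT SCI + SWIM replicate 3 and -0.09 without both that rat and CONT SCI + SWW replicate 4. Across all 15179 genes the log2 fold change of CONT SCI minus No SCI had a Pearson r of 0.404 and a Spearman rho of 0.488 with that of CONT SCI + SWIM minus CONT SCI + SWW. The points of that correlation are genes of the same 20 libraries and are not independent replicates.

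**Figure D4:**
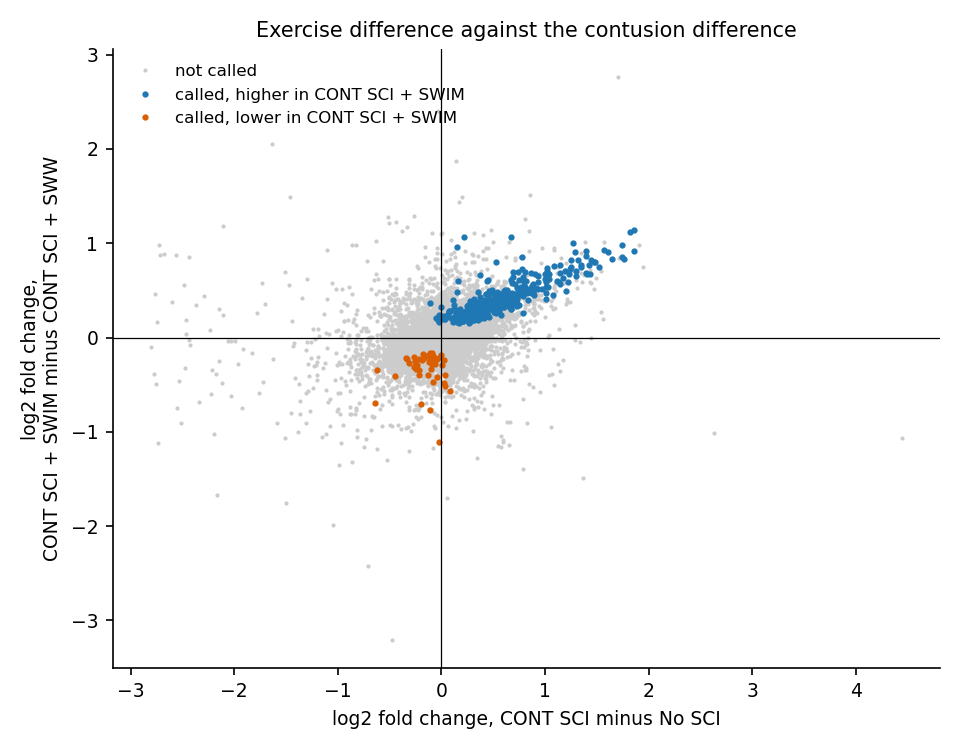
Log2 fold change of CONT SCI + SWIM minus CONT SCI + SWW (vertical axis) against that of CONT SCI minus No SCI (horizontal axis), 2 comparisons with no sample in common, for each of the 15179 tested genes. Of the 405 blue genes, called higher in CONT SCI + SWIM, 398 lie to the right of 0 on the horizontal axis, and of the 49 orange genes 42 lie to the left.

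The genes called between the untrained groups were also followed rat by rat. These calls come from the fit to all 20 samples, so the exercised rats entered the filter, scaling and dispersions but not the contrast. Averaged over the 1216 genes higher in CONT SCI than in No SCI, the offset from the mean of the 10 exercised rats was 0.0878, 0.127, 0.268, 0.0564 and 0.110 log2 units in CONT SCI + SWIM replicates 1 to 5. In CONT SCI + SWW replicates 1 to 5 it was -0.0796, -0.158, -0.125, -0.201 and -0.0854. All 5 swimming rats lay above all 5 walking rats, with CONT SCI + SWIM replicate 3 farthest from the walking rats and CONT SCI + SWW replicate 4 farthest from the swimming rats. The offsets over the 542 genes lower in CONT SCI were 0.0463, -0.0709, -0.316, -0.00941 and -0.0363 in CONT SCI + SWIM, and 0.0066, 0.214, 0.0633, 0.149 and -0.047 in CONT SCI + SWW. There the groups overlapped, and CONT SCI + SWIM replicate 3 lay lowest.

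Over the 405 genes, whose choice fixes the order of the 2 exercised groups, the offset was 0.0866 to 0.381 in CONT SCI + SWIM and -0.288 to -0.142 in CONT SCI + SWW. The untrained rats, which entered the fit but not the contrast that chose the genes, lay at 0.355 to 0.640 in CONT SCI and at -0.168 to 0.0435 in No SCI. CONT SCI + SWIM replicate 3, at 0.381, thus reached into the CONT SCI range, and the No SCI and CONT SCI + SWW ranges overlapped. CONT SCI + SWIM replicate 3 had the highest level of the 10 exercised rats in 331 of the 405 genes (81.7%), against 21.2% of all tested genes. CONT SCI + SWW replicate 4 had the lowest level in 235 of them (58.0%), against 17.0% of all tested genes. In the 405 genes the highest level was always that of a swimming rat and the lowest that of a walking rat. Over all tested genes any of the 10 rats could be highest or lowest. The choice of genes thus raises both shares in itself, and all tested genes are not an even base for them. The median log2 fold change of the 405 genes was 0.31 without CONT SCI + SWIM replicate 3, 0.33 without CONT SCI + SWW replicate 4 and 0.28 without both. The rats left in also took part in the choice of the 405 genes, so these medians are no separate evidence.

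**Figure D5:**
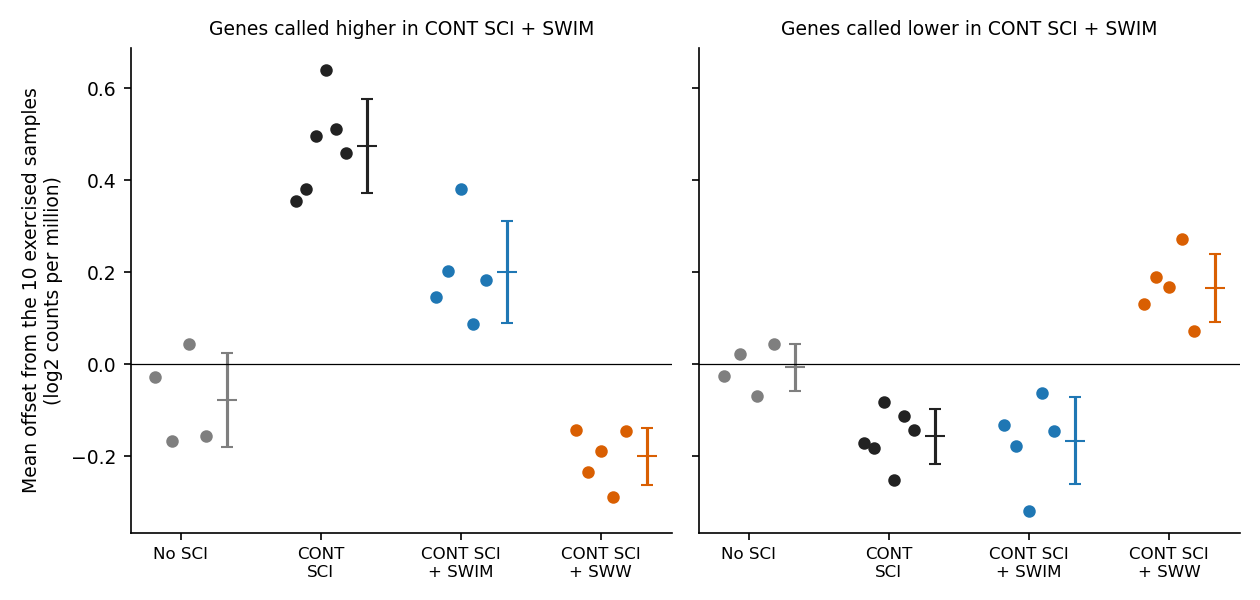
Mean offset of each rat from the average of the 10 exercised rats, in log2 CPM (vertical axis), over the 405 genes called higher (left) and the 49 called lower (right) in CONT SCI + SWIM, with bars for the group mean ± SD. On the left CONT SCI lies at 0.355 to 0.640 and No SCI at -0.168 to 0.0435; on the right CONT SCI and CONT SCI + SWIM share a range below 0.

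The 49 genes lower after swimming stood apart from CONT SCI mainly through the walking group. Their median log2 fold change against CONT SCI was 0.02 in CONT SCI + SWIM and 0.30 in CONT SCI + SWW. In CONT SCI + SWW 36 of them were called higher than CONT SCI (73.5%, against 18.7% of all tested genes). The choice of genes with higher levels in CONT SCI + SWW raises that share in itself. It was 28.0% among the 7946 genes fitted lower in CONT SCI + SWIM but not called, which were not matched in level or SE. In CONT SCI + SWIM 5 of the 49 were called higher (10.2%, against 12.6%) and 7 lower (14.3%, against 19.6%), both shares below those of all tested genes. The CONT SCI mean lay below both exercised means in 25 genes (51.0%), between them in 23 and above both in 1. It lay below both in 40.5% of all tested genes and in 47.6% of the 7946, so the 51.0% was near the share of uncalled genes of that direction. The No SCI mean lay between them in 38 (77.6%, against 23.9% of all tested genes), a share that the choice by a gap raises in itself. Between CONT SCI and No SCI 12 of the 49 were called lower in CONT SCI (24.5%, against 3.57% of all tested genes) and 0 were called higher (8.01% of all tested). Over these genes the offsets of CONT SCI, -0.252 to -0.0814, lay within those of CONT SCI + SWIM, -0.318 to -0.0623, and the offsets of CONT SCI + SWW were 0.0720 to 0.272. Without CONT SCI + SWIM replicate 3, 1 gene was called lower, and without CONT SCI + SWW replicate 4, 0 were by edgeR's test, where 819 genes were lower at an unadjusted p under 0.05. With all samples DESeq2 called 160 genes lower.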

How the data were processed

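RNA of whole DRG was sequenced as single-end reads from a stranded library and counted by strand. The authors aligned reads to the rat genome Rn6 with STAR and counted them per Ensembl gene with HTSeq 0.10.0, leaving mitochondrial genes out, and deposited whole-number counts, 1 column per rat. Reads were checked with FastQC 0.10.1 before alignment, per the submitters' processing notes. From these counts, edgeR 4.0.16 in R 4.3.3 was fitted to 20 samples in 4 groups after filterByExpr (minimum count 10, minimum total 15) and TMM scaling, with 1 term per group. Each contrast was tested by quasi-likelihood with Benjamini-Hochberg adjustment over 15179 genes. CPM used TMM-scaled totals, log2 CPM a prior count of 2. The SE is the log2 fold change divided by the root of F. TX SCI samples were left out of the main fit. Because 0 of 24613 identifiers matched a symbol, the gene lists prepared could not be applied, and the 2 largest rises and 2 largest falls among called genes whose mean log2 CPM reached 1 were named. Members, lists and tests were chosen with earlier results of these data known. On simulated counts over 15162 genes, 100 genes were changed by a log2 value of 1 and 100 by 0.35. Of these 92 and 42 were called, with 6 unchanged genes. The number of unchanged genes called where many genes shift together in the same rat was not tested. The tests set group differences against the spread between rats and take each rat as independent. Cages were not in the model, so any likeness of cage mates was not accounted for.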

Additional observations from a re-analysis of the deposited data

Results flagged for a closer look

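Beside CONT SCI as a shared reference, the difference of CONT SCI + SWIM and the difference of CONT SCI + SWW were not equal in 454 genes, which is the same test as the direct comparison (edgeR's quasi-likelihood test, adjusted p under 0.05). The difference between the 2 effects was 1.14 on the log2 scale in ENSRNOG00000009542, 1.00 in ENSRNOG00000002496, -1.10 in ENSRNOG00000003538 and -0.76 in ENSRNOG00000016326. Over 32 sets of 4 to 6 samples, 0 held a single rat that stood apart by Dixon's 95% criterion, where chance would give about 1.6. In sets of 5 only a gap over 0.71 of the range is flagged, so a rat can carry weight unflagged. CONT SCI + SWIM replicate 3 had a gap of 0.606 in its mean offset over the genes called higher in CONT SCI + SWIM, and 123 genes were called without it.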

How the results depend on the processing

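Against 454 genes (405 higher in CONT SCI + SWIM, 49 lower), DESeq2's Wald test called 821 (661 and 160). An adjusted p under 0.01 left 105 (105 and 0, where 1260 were lower at an unadjusted p under 0.05 by edgeR and 1195 by DESeq2), and a log2 fold change of at least 0.5 left 98 (92 and 6). Without a filter on low counts 22 genes were lower, and with only the 10 exercised samples in the fit 89. Leaving out 1 rat gave 123 to 811 genes, 122 to 697 higher and 0 to 123 lower. Leaving out CONT SCI + SWIM replicate 3 and CONT SCI + SWW replicate 4 together, chosen after seeing the data, gave 27 (27 higher, 0 lower, where 515 were lower at an unadjusted p under 0.05). The cause was not tested. Other scalings, the robust fit, a higher expression filter, all 24 samples and libraries thinned to the smallest total gave 403 to 543 genes. With the replicate block, the 10 samples gave 364 genes (314 and 50), and without it 541. The replicate numbers did not pair the rats: deviations of same-numbered rats had a mean correlation of -0.0476, 0 of 5 pairs were over 0.1 and 0 of 5 rats correlated best with their own number. Of all alternative values, 158 kept direction and call or moved little, 48 moved by more, 20 lost the call and 0 reversed. The median SE was largest under 1 CPM, at 0.327.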
